A study of Mus musculus with 2 samples.

Results

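Serpina3n, Lcn2, Ptx3, Timp1, Serping1, Saa3 and Steap4 are 7 of the 32285 genes counted in single-cell libraries of mouse retina. They were chosen by name as genes of the acute-phase and reactive glia response, with measured values of these libraries already known, so that their levels after light damage are given here as a description and not as a test. All 7 were found in the GENCODE annotation. The data are 2 libraries, 1 from a control pool and 1 from a light damage pool, each made from the retinae of 3 to 5 mice of 6 to 9 weeks and of both sexes. Mice of both pools are labelled WT and carried floxed Tgfbr2 alleles without loss of the receptor, on a Balb-C/CD1 background that is homozygous for the leucine variant of RPE65. Control mice spent 18 h in darkness and received no bright light, while light damage mice followed the same dark adaptation with 30 min of white light at 5000 lux and 6 h of recovery in dim light. Each condition has 1 library and thus no replicate, and no test was made. The intervals printed here, all at 95%, cover counting error only, and differences between mice or pools are not part of them. Levels are given in CPM, the UMIs of a gene per UMIs of its class, spliced and ambiguous RNA together, where a UMI is a unique molecule tag.

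The acute-phase response is the release of secreted proteins that follows injury or infection, best known from the liver, where cytokines of the interleukin-6 family act through STAT3 and interleukin-1 acts through NF-kB and C/EBP factors. Several of the same genes are made locally in injured nervous tissue, where Serpina3n, Lcn2, Timp1 and Steap4 are used as marks of reactive glia. In the retina, Müller glia span the whole tissue and become reactive after photoreceptor injury, and the retinal pigment epithelium (RPE) borders the outer segments of the photoreceptors.

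Serpina3n encodes a secreted inhibitor of serine proteases (ENSMUSG00000021091, chr12:104406729-104414329, plus strand). Lcn2 encodes lipocalin-2, a secreted protein that binds iron-carrying siderophores (ENSMUSG00000026822, chr2:32384633-32388252, minus strand). Ptx3 encodes a secreted long pentraxin of innate immunity (ENSMUSG00000027832, chr3:66219910-66225805, plus strand). Timp1 encodes an inhibitor of matrix metalloproteases (ENSMUSG00000001131, chrX:20870166-20874735, plus strand), and Serping1 the inhibitor of the complement protease C1 (ENSMUSG00000023224, chr2:84765387-84775444, minus strand). Saa3 encodes a serum amyloid A protein (ENSMUSG00000040026, chr7:46711998-46715700, minus strand) and Steap4 a metalloreductase that reduces iron and copper (ENSMUSG00000012428, chr5:7960457-7982213, plus strand). Positions are those of GENCODE vM21 on GRCm38.

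Sequences upstream of the RefSeq start were listed for 6 of the 7 genes and not for Serping1. The stretches below show which windows hold the motifs named next, and no link between motif and level was tested. Motifs of factors of this response were searched on both strands of the 250 bases before the start, namely the STAT motif TTCNNNGAA, the C/EBP motif TTGCNNAA and the NF-kB consensus. Capitals mark a match on either strand, and all sequences are of GRCm38.p6, written in the direction of the gene. The 250 bases before Serpina3n (chr12:104406458-104406707, plus strand), Ptx3 (chr3:66219637-66219886, plus strand) and Timp1 (chrX:20869916-20870165, plus strand) lie outside annotated exons.
Serpina3n: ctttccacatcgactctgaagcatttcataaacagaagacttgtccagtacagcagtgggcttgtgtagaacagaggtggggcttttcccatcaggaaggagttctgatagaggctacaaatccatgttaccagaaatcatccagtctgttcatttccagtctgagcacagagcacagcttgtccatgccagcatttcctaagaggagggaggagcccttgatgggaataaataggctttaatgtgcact
Ptx3: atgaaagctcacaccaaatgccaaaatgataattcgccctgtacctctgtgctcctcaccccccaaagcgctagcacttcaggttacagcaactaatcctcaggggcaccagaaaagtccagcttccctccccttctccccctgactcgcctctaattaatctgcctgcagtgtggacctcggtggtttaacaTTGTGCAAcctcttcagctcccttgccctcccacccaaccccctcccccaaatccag
Timp1: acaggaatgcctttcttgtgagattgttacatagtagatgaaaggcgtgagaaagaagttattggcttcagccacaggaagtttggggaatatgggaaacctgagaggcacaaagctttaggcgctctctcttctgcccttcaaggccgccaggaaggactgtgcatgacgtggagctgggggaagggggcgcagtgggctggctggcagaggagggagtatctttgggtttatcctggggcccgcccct
Ptx3 held 1 C/EBP match, from 57 to 50 bases before its start, and the windows of Serpina3n and Timp1 held none of the 3 motifs. The windows of Lcn2, Saa3 and Steap4 overlap annotated exons, so only 30 bases around their C/EBP matches are printed (chr2:32387937-32387966, minus strand; chr7:46715757-46715786, minus strand; chr5:7960374-7960403, plus strand).
Lcn2: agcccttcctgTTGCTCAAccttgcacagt
Saa3: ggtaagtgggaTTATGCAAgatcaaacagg
Steap4: cacagctcctcTTGCGAAAtcaagcgggcc
A C/EBP match was thus present in 4 of the 6 windows, and 9.56% of all 32851 windows of the same length held one. A STAT match was present in the window of Steap4 alone, beside 7.02% of all windows, and an NF-kB match in the window of Steap4 alone, beside 3.9% of all windows. A match describes the letters of a window and is no measured binding site.

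Droplets were grouped by clustering without the 7 members and named from markers. The named classes held 159 control and 300 light damage RPE-like droplets, 49 and 27 Müller-like, 12 and 40 microglia-like, 210 and 104 cone-like, and 3177 and 4903 rod-like droplets. Of the 3669 control and 5593 light damage droplets kept, 7 barcodes were shared between the libraries. All 10 Müller markers, microglia markers and rod markers and all 8 cone markers were counted in their class in both libraries, and 9 of 10 RPE markers were counted in control RPE-like droplets, where Best1 was at 0. RPE-like droplets also carried the Müller markers Glul, Car14, Rlbp1 and Apoe, while Aqp4 and Gpr37 were at 0 in both libraries. Median UMIs per droplet were higher after light damage in all 5 classes, from 2635 to 6190 in RPE-like and from 2335 to 22134 in Müller-like droplets. UMIs of rod markers, which stand for free RNA, were at 8.85% of their free RNA level in RPE-like droplets of the control and 6.19% after light damage, and at 21.6% and 7.23% in Müller-like droplets. The part of depth and free RNA in the results was not tested.

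The names of 2 clusters decide much of what follows. A cluster of 108 RPE-like and one of 26 Müller-like droplets, both from the light damage library alone, carried 8 of 10 RPE markers and 10 of 10 Müller markers in at least 10% of their droplets, but none of these markers was among the 10 genes of highest fold in the cluster. The naming rule as first written asked for at least 1 marker there and left both clusters unnamed; that condition was dropped after the clusters had been seen. Under it, 192 light damage RPE-like droplets are left, with a log2 bound of 5.14 for Serpina3n, 2.31 for Lcn2 and 1.59 for Ptx3 and a log2 ratio of -0.91 for Timp1, and 1 light damage Müller-like droplet, which had no UMI of any member. When each droplet was named from its own marker UMIs instead, without clusters, 281 of the 300 RPE-like and 26 of the 27 Müller-like droplets of the light damage library kept their name. The marker lists were the same, so this is no independent check of the names. That naming called 47 light damage droplets Müller-like in all.

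In RPE-like droplets after light damage, Serpina3n, Ptx3 and Lcn2 were the leading members and none of the 3 had a UMI in the 694265 UMIs of control RPE-like droplets. A count of 0 there allows a level of up to 4.32 CPM. Among the 2391999 UMIs of the 300 light damage RPE-like droplets, Serpina3n reached 767 CPM (95% interval 732 to 803), Ptx3 423 (398 to 450) and Lcn2 319 (296 to 342). Taking the control count as 3, Serpina3n was at least 177-fold, Ptx3 at least 98.0-fold and Lcn2 at least 73.7-fold higher. The levels differed among the 3 genes by more than counting error, but these are UMIs per gene of a 3-prime method and not levels per length.

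Timp1 was low in the RPE, with 35 UMIs or 14.6 CPM (10.2 to 20.4) after light damage and 3 UMIs, all in 1 droplet, in the control. Its log2 ratio was 1.76 with an interval from 0.09 to 4.11. The sign turned to -0.91 under the naming rule as first written, with 3 UMIs in each library, and to -2.07 where droplets with markers of another class, shared ones included, were left out. Without that control droplet the control level of Timp1 was 0. Steap4 had 2 UMIs in light damage RPE-like droplets, and Serping1 and Saa3 had none, which allows up to 1.25 CPM. Of the 7 members, 4 had at least 10 UMIs over both libraries in RPE-like droplets, and all 4, Timp1 with the exceptions just given, were at least 2-fold higher after light damage, beside 14.1% of the 10375 genes with as many UMIs. Since the members were chosen on this contrast, nothing is read from that count.

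**Figure D1:**
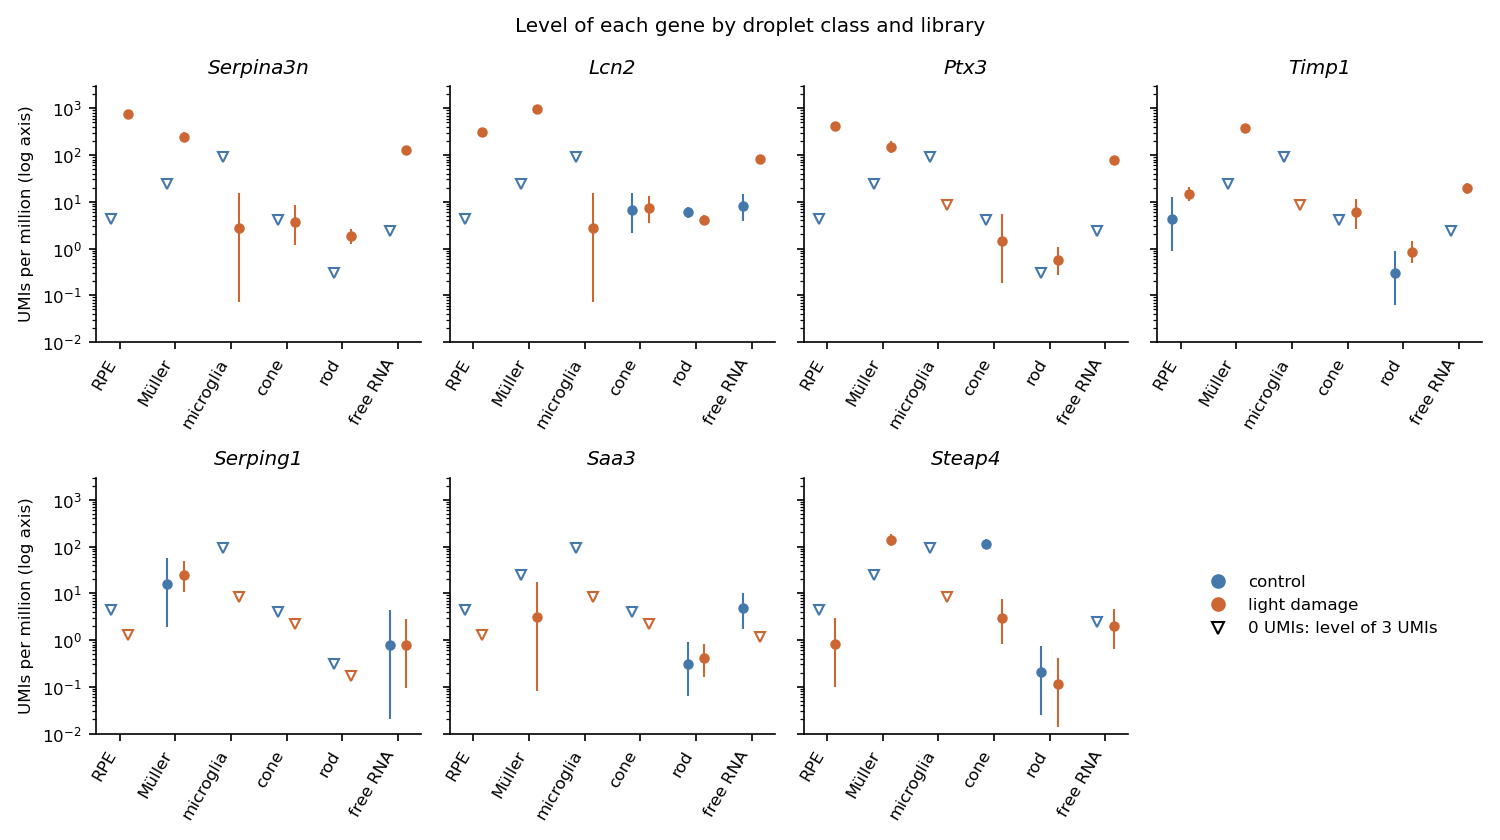
CPM (vertical log axis) of the 7 members in each droplet class and in free RNA (horizontal axis), with control in blue and light damage in orange. Bars are 95% Poisson intervals and open triangles stand at the level of 3 UMIs where the count was 0. Serpina3n and Ptx3 were highest in RPE-like droplets of the light damage library, Lcn2, Timp1 and Steap4 in Müller-like droplets, and the control value of Steap4 in cones comes from 1 droplet.

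The 300 light damage RPE-like droplets fell into 2 clusters that differed in the members. Cluster A held all 159 control and 192 light damage droplets, and cluster B held 108 light damage droplets and no control droplet, so that B cannot be told apart from a feature of the light damage library. Cluster B was led by 3930402G23Rik, Chil1, Thbs4 and Angptl4, and both clusters carried RPE genes. Rpe65, the isomerase of the visual cycle, stood at 1790 CPM in light damage cluster A and 1904 in cluster B, Lrat, which makes the retinyl esters of that cycle, at 1885 and 2517, and Rdh5, the dehydrogenase that follows, at 4466 and 5457. Pmel, a protein of melanosome fibrils, was at 565 CPM in light damage cluster A and 14.7 in cluster B. Tyrp1, an enzyme of pigment synthesis, was at 546 and 333. In the control droplets Rpe65 stood higher, at 4186 CPM, Lrat at 2165, Rdh5 at 5790, Pmel at 264 and Tyrp1 at 477.

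Serpina3n was counted in 55 of 192 light damage droplets of cluster A and in 87 of 108 of cluster B. The summed levels were 153 (132 to 175) and 1502 (1430 to 1577) CPM, a 9.84-fold difference. Lcn2 was counted in 13 and 63 droplets, with 21.5 (14.3 to 31.0) and 674 (627 to 725) CPM, a 31.4-fold difference. Ptx3 was counted in 11 and 66 droplets, with 13.0 (7.60 to 20.9) and 915 (859 to 974) CPM, a 70.2-fold difference. Timp1 had 3 UMIs in cluster A and 32 in cluster B. Cluster B thus held 36% of the light damage RPE-like droplets and 45.5% of their UMIs, but 89.2% of the Serpina3n, 96.3% of the Lcn2, 98.3% of the Ptx3 and 91.4% of the Timp1 UMIs.

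The levels of cluster A after light damage still lay above those of the control droplets in the same cluster, where Serpina3n, Lcn2 and Ptx3 were at 0. Free RNA of the light damage library held Serpina3n at 126, Lcn2 at 81.5 and Ptx3 at 77.2 CPM. Its part in the low Lcn2 and Ptx3 counts of cluster A was not tested. Other genes that led cluster B moved with the members. Chil1, a secreted chitinase-like protein, stood at 186 CPM in the control, 572 in light damage cluster A and 6387 in cluster B. Angptl4, an inhibitor of lipoprotein lipase, stood at 15.8, 59.8 and 663. Median UMIs per droplet were 2635, 5225 and 8089 in these 3 groups. The clusters were made from the same droplets, so these differences are a description.

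**Figure D2:**
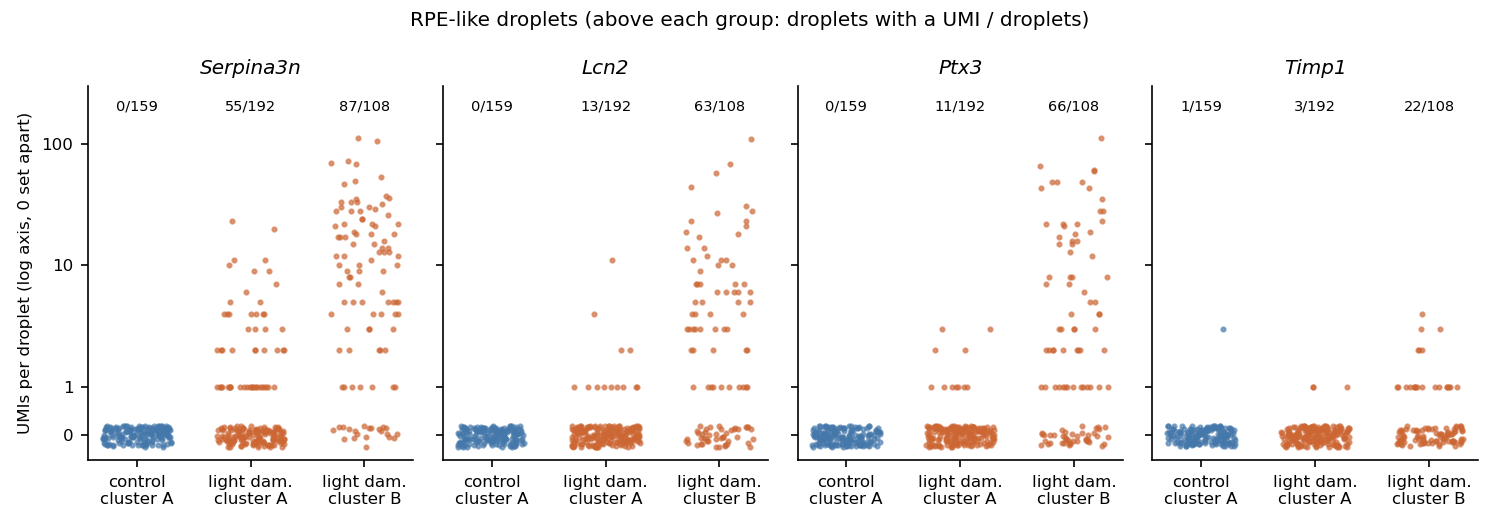
UMIs per droplet (vertical log axis, with 0 set apart at the bottom) of Serpina3n, Lcn2, Ptx3 and Timp1 in RPE-like droplets, grouped by library and cluster on the horizontal axis. Each point is a droplet, and the fraction above each group gives droplets with a UMI of all droplets. In cluster B most droplets had Serpina3n, and single droplets reached 113 UMIs of Serpina3n, 110 of Lcn2 and 113 of Ptx3.

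Within light damage RPE-like droplets the UMIs were uneven. A UMI of Serpina3n was counted in 142 of 300 droplets (47.3%, exact binomial interval 41.6 to 53.1), of Ptx3 in 77 (25.7%) and of Lcn2 in 76 (25.3%). The median among droplets with a UMI was 5 for Serpina3n, 4 for Lcn2 and 3 for Ptx3. The 30 droplets with most UMIs of a gene held 65.3% of its UMIs for Serpina3n, 84.9% for Lcn2 and 89.5% for Ptx3. Leaving out the droplet with most UMIs gave 726 CPM for Serpina3n, 277 for Lcn2 and 378 for Ptx3.

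With clusters A and B pooled, the members were often counted together. Of the 300 droplets, 135 had none of Serpina3n, Lcn2 and Ptx3, 70 had 1, 60 had 2 and 35 had all 3. Lcn2 and Ptx3 shared 40 droplets, which is 52.6% of the droplets with Lcn2 and 51.9% of those with Ptx3. Serpina3n was counted in 80.3% of the droplets with Lcn2 and in 83.1% of those with Ptx3. Of all cluster B droplets, 80.6% had Serpina3n, 58.3% Lcn2 and 61.1% Ptx3, so these shares are close to or below those of cluster B. Whether members were counted together more often within a cluster was not tested. Across the 300 droplets of this single library the Spearman correlation of log2 levels was 0.44 for Serpina3n and Lcn2, 0.48 for Serpina3n and Ptx3 and 0.37 for Lcn2 and Ptx3. The droplets share 1 library, and UMIs per droplet also correlated with the counts (0.30 for Serpina3n, 0.18 for Lcn2 and 0.22 for Ptx3).

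Müller-like droplets after light damage showed another order of the members. Lcn2 led with 989 CPM (883 to 1105), followed by Timp1 with 377 (312 to 450), Serpina3n with 245 (194 to 306), Ptx3 with 148 (108 to 196) and Steap4 with 138 (100 to 186). All 5 were at 0 in the 124520 UMIs of 49 control Müller-like droplets, which allows up to 24.1 CPM. Against 3 control UMIs, Lcn2 was at least 41.0-fold, Timp1 at least 15.6-fold, Serpina3n at least 10.2-fold, Ptx3 at least 6.13-fold and Steap4 at least 5.73-fold higher. Of the 6 members with at least 10 UMIs these 5 were at least 2-fold higher, beside 22.3% of the 7087 genes counted as often.

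Serping1 was the only member with UMIs in control Müller-like droplets. It had 2 UMIs there and 8 after light damage, at 16.1 (1.95 to 58.0) and 25.1 (10.8 to 49.5) CPM, and its log2 ratio of 0.65 had an interval from -1.68 to 3.92. A change of Serping1 was thus not detectable in spliced and ambiguous UMIs. With unspliced UMIs included, it had 2 of 258843 UMIs in the control and 32 of 648592 after light damage, 24 of them unspliced. The difference thus depends on which UMIs are counted, and it was not tested. Saa3 had 1 UMI in light damage Müller-like droplets.

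The Müller values rest on few droplets. Lcn2 was counted in 5 of 27 droplets, and 3 of them held 129, 92 and 88 of its 315 UMIs. Serpina3n was counted in 10 droplets with at most 27 UMIs, Ptx3 in 11 with at most 11, Steap4 in 7 with at most 16, and Timp1 in 16 with at most 25. Timp1 was thus the most widely counted member, in 59.3% of the droplets (38.8 to 77.6). Without its leading droplet, Lcn2 stood at 613 CPM, Serpina3n at 168 and Timp1 at 312. The 3 droplets rich in Lcn2 also held 7, 15 and 25 UMIs of Timp1, whereas Gfap, the intermediate filament of reactive glia, had 3 UMIs in 1 of them and none in the other 2. Of the 27 droplets, 3 had none of the 7 members, and 1 droplet had 5 of them.

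**Figure D3:**
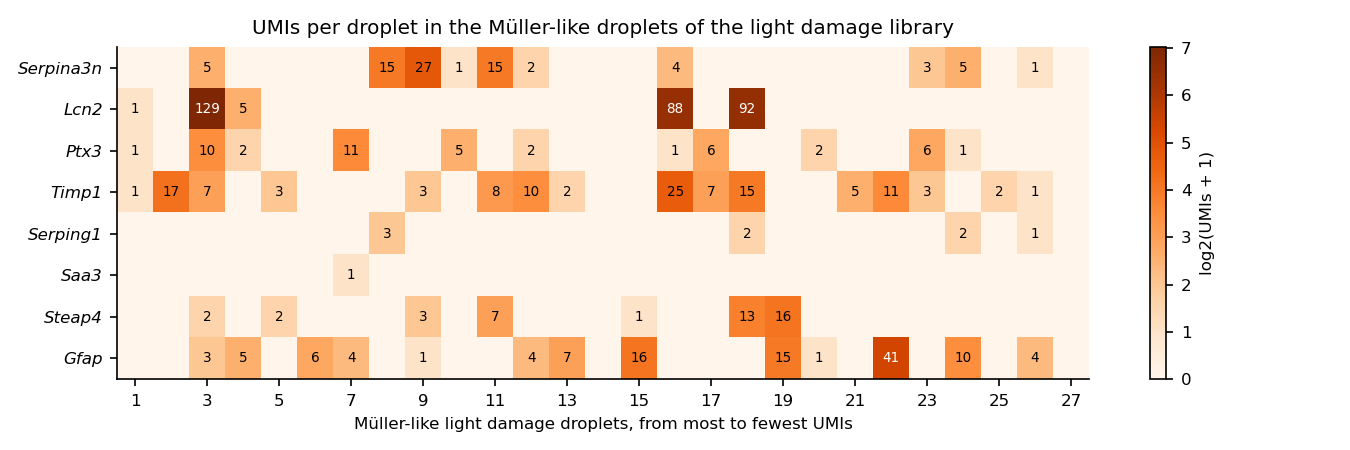
UMIs of the 7 members and of Gfap (rows) in each of the 27 Müller-like droplets of the light damage library (columns, from 49028 to 2639 UMIs), with colour on a log2(UMIs + 1) scale. Lcn2 was concentrated in 3 droplets, and Timp1 and Ptx3 were spread over more droplets.

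Control and light damage Müller-like droplets came from different clusters, with 49 control and 1 light damage droplet in one and 26 light damage droplets in the other, so that library and cluster cannot be told apart. The second cluster was led by Tnfaip6, Cp, Slc7a11, Akap12 and Lif. The light damage droplets had a median of 22134 UMIs, against 2335 in the control, and both had about the same unspliced share (48.8% and 50.8%). The 10 Müller markers together fell from 27353 to 12641 CPM. Of 5 astrocyte markers, 4 had UMIs after light damage, at 430 CPM in all against 120 in the control, and Pax2, which marks retinal astrocytes, was at 0 in both libraries. Of the endothelial markers, Kdr and Flt1 had UMIs in both, while Pecam1, Cdh5 and Ly6c1 were at 0, and all 6 neutrophil and all 6 macrophage markers were at 0 in both libraries.

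Between these classes in the light damage library, Serpina3n was 3.13-fold higher in RPE-like than in Müller-like droplets (log2 1.65, 1.32 to 1.99), and Ptx3 was 2.87-fold higher (log2 1.52, 1.099 to 1.98). Lcn2 was higher in Müller-like than in RPE-like droplets (log2 1.63, 1.44 to 1.83), and Timp1 was 25.8-fold higher (log2 4.69, 4.13 to 5.27). Serpina3n and Ptx3 were therefore highest in RPE-like droplets and Lcn2, Timp1 and Steap4 in Müller-like droplets. The order of Serpina3n and Ptx3 comes from cluster B, since the 192 droplets of cluster A, with 153 and 13.0 CPM, lay below the 245 and 148 of Müller-like droplets. For Serpina3n, Lcn2 and Ptx3 the next class in the order was the cones, lower than the second class by 66.2-fold, 43.0-fold and 99.7-fold, and the neighbours below it did not differ beyond their counting intervals.

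Microglia-like droplets, which held 356759 UMIs after light damage, had 1 UMI of Serpina3n, 1 of Lcn2 and none of the other 5 members. The free RNA in these droplets alone would give 3.28 UMIs of Serpina3n, 2.12 of Lcn2 and 2.01 of Ptx3. No member had at least 10 UMIs there, and 15% of the 5806 genes that did were at least 2-fold higher after light damage. The 12 control microglia-like droplets had no UMI of any member, and their 32726 UMIs allow up to 91.7 CPM.

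Cone-like droplets held few UMIs of the members. After light damage they had 5 UMIs of Serpina3n, 10 of Lcn2, 2 of Ptx3, 8 of Timp1 and 4 of Steap4 among 1351307 UMIs. The control cones had 5 UMIs of Lcn2 and 86 of Steap4, and all 86 were in 1 droplet of 49655 UMIs that had no cone marker UMI and was rich in Gsto1, Prss22 and Pglyrp1. Of the control cone-like droplets 112 carried at least 3 cone markers above free RNA, and Steap4 was at 0 in them, as it was in the 83 such droplets after light damage. In these droplets Lcn2 stood at 9.85 (3.20 to 23.0) CPM in the control and 2.55 (0.53 to 7.44) after light damage. Of the 2 members with at least 10 UMIs in cone-like droplets neither was 2-fold higher, beside 21.6% of 10436 genes.

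In rod-like droplets Lcn2 was the only member counted in both libraries at more than a few UMIs. It had 58 UMIs in 37 of 3177 control droplets and 72 UMIs in 57 of 4903 light damage droplets, at 5.91 (4.49 to 7.64) and 4.14 (3.24 to 5.22) CPM. Its log2 ratio was -0.51 with an interval from -1.03 to 0.01, and -0.95 less the median of genes with at least 50 UMIs in both libraries, which was 0.44 higher in rods of the light damage library. The rods differed in unspliced share, with a median of 4.91% in the control and 44.5% after light damage. In rods under 25% unspliced, Lcn2 stood at 6.81 (5.13 to 8.87) in the control and 6.79 (4.93 to 9.11) after light damage. In rods of 25% or more it stood at 1.72 (0.36 to 5.03) and 2.57 (1.71 to 3.72). Free RNA, as estimated from RPE genes, would give 0.95 of the 58 control and 11.3 of the 72 light damage UMIs of Lcn2.

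Serpina3n was at 0 in the 9814590 UMIs of control rods and had 32 UMIs after light damage, each in a droplet of its own. Free RNA, as estimated from RPE genes in rods, would give 17.4 of these 32 UMIs. Ptx3 had 10 UMIs in light damage rods, with 10.7 expected from free RNA, so that no level above free RNA was detectable. Timp1 had 15 UMIs with 2.72 expected. Saa3 had 3 UMIs in the control and 7 after light damage, all of them ambiguous between spliced and unspliced RNA. Of the 5 members with at least 10 UMIs in rods, Serpina3n and Timp1 were at least 2-fold higher, beside 31% of the 13858 genes.

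Barcodes with under 50 UMIs, which hold free RNA and no cell, showed the members as well. In the light damage library Serpina3n stood at 126 CPM there (112 to 140), Lcn2 at 81.5 (70.8 to 93.3), Ptx3 at 77.2 (66.8 to 88.7) and Timp1 at 19.6 (14.5 to 25.8). In the control library Serpina3n, Ptx3, Timp1 and Steap4 were at 0 in 1259397 free UMIs, Lcn2 stood at 7.94 (3.81 to 14.6), and Saa3 had 6 UMIs. With the share of free RNA in each class, the counts in light damage RPE-like droplets were 98.5-fold those expected for Serpina3n, 88.7-fold for Ptx3, 63.2-fold for Lcn2 and 12.1-fold for Timp1. In Müller-like droplets they were 168-fold for Lcn2, 266-fold for Timp1 and 26.96-fold for Serpina3n. Free RNA of Timp1 stood above the 14.6 CPM of RPE-like droplets and below the 377 of Müller-like droplets.

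**Figure D4:**
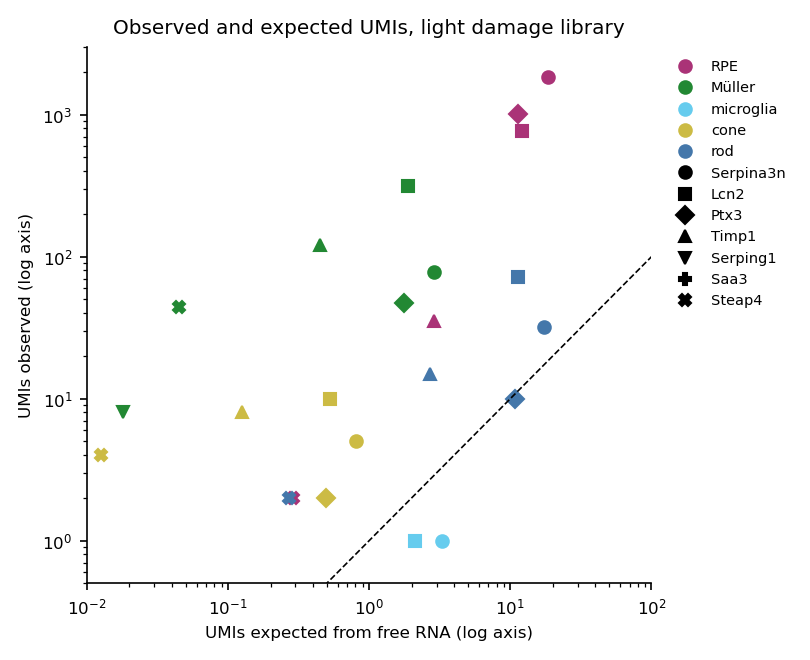
UMIs of each member (symbols) observed in each class (colours) of the light damage library on the vertical log axis, against the UMIs expected from free RNA on the horizontal log axis; the dashed line marks equal values, and pairs with 0 observed or 0 expected are not drawn. RPE-like and Müller-like points lie far above the line, Ptx3 in rods lies on it, and Serpina3n and Lcn2 in microglia lie below it.

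Droplets of different depth were compared after thinning each to 1500 UMIs. A UMI of Serpina3n was then left in 31% of light damage RPE-like droplets (25.8 to 36.6), of Lcn2 in 16.3% (12.3 to 21.0), of Ptx3 in 15% (11.2 to 19.6) and of Timp1 in 1.67% (0.54 to 3.85). None of the 4 was left in the 157 control RPE-like droplets of that depth, where the exact interval reaches 2.32%. In light damage rods, taken as a class that should lack both, the shares of Serpina3n and Ptx3 were 0.12% and 0.10%; median depth before thinning was 4410 UMIs in rods and 6190 in RPE-like droplets. In the 27 Müller-like droplets Timp1 was left in 25.9% (11.1 to 46.3), Lcn2 and Steap4 in 11.1% each (2.35 to 29.2), Serpina3n in 7.41% and Ptx3 in 3.70%. Thinned to 1000 UMIs, these shares became 11.1% for Timp1, Lcn2 and Serpina3n, 14.8% for Ptx3 and 3.70% for Steap4, so no order among the members is read from them.

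The RNA of Serpina3n, Lcn2, Ptx3 and Timp1 was mostly spliced in RPE-like and Müller-like droplets, unlike that of Steap4 and Serping1 in Müller-like droplets. In light damage RPE-like droplets the unspliced share was 0.87% of 1850 UMIs for Serpina3n (0.50 to 1.40) and 0 of 762 and of 1013 UMIs for Lcn2 and Ptx3, while all genes had 5.97%. In light damage Müller-like droplets, where 50.9% of all UMIs were unspliced, Serpina3n had none of 78, Lcn2 4.55% of 330 (2.57 to 7.39), Timp1 6.98% of 129 (3.24 to 12.8) and Ptx3 6% of 50 (1.25 to 16.5). Steap4 had 33.3% of 66 (22.2 to 46.0), and Serping1, with 24 of 32 UMIs, 75% (56.6 to 88.5). The order of the members by unspliced share is not corrected for intron length or priming sites.

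Relatives of Serpina3n and Saa3 took few UMIs. Over all barcodes of the light damage library Serpina3n had 2668 UMIs, against 14 for Serpina3i and 10 for Serpina3g, the next members of the Serpina3 cluster on chr12, and 8 of the Serpina3g UMIs were in RPE-like droplets. Saa1 had 6 UMIs, Saa2 2 and Saa3 10. Reads that fit several copies may be split or lost by the counting of the authors.

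Ligands, receptors and factors that drive the acute-phase response were counted from a list of 27 genes. In RPE-like droplets 19 of them had at least 10 UMIs, 14 were at least 2-fold higher and none at least 2-fold lower, with a median log2 ratio of 2.41. Of all genes with as many UMIs 14.1% were at least 2-fold higher there, with a median of 0.05. In Müller-like droplets 17 passed, of which 14 were at least 2-fold higher and 1 as much lower (median 2.45), beside 22.3% of all genes higher (median -0.03). In microglia-like droplets 8 of 18 were higher and 3 lower (median 0.70), beside 15% of all genes (-0.33). In cones 11 of 18 were higher and 3 lower (1.57), beside 21.6% (0.32), and in rods 14 of 15 higher and none lower (2.11), beside 31% (0.61). The cone counts include Tnf, lower, with all 134 control UMIs in 1 droplet, and Il1b, higher, with 65 UMIs in 2 droplets. These droplets carried fewer than 3 cone markers above free RNA.

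The ligands were counted in different classes. Il6, the cytokine that names the family, had 221 UMIs in light damage RPE-like droplets and none in the control (92.4 CPM, at least 21.4-fold higher). Its UMIs lay in 17 droplets, of which 16 were in cluster B. Lif, leukemia inhibitory factor, had 325 UMIs in 21 of 27 Müller-like droplets and none in the control (1020 CPM, at least 42.3-fold higher), but 10 UMIs in RPE-like droplets. Clcf1, another ligand of the family, went from 1 UMI to 75 in Müller-like droplets (log2 4.87, 2.35 to 10.20). Osm, oncostatin M, had 56 UMIs in 11 of 40 microglia-like droplets and none in the control, where a count of 0 allows only a 1.71-fold bound. Il1b, the gene of interleukin-1 beta, had 292 UMIs in microglia-like droplets after light damage and 0 before (at least 8.93-fold higher), and 1 UMI each in RPE-like and Müller-like droplets. It also had 65 UMIs in 2 cone-like droplets after light damage, both with fewer than 3 cone markers above free RNA, and none in the control (at least 11.9-fold higher), and 7 UMIs in rods.

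Receptors and transducers were higher in classes with and without many member UMIs. Osmr, the oncostatin M receptor, went from 223 to 2317 CPM in RPE-like droplets (log2 3.38, 3.15 to 3.62) and from 145 to 744 in Müller-like droplets (log2 2.36, 1.67 to 3.14). In RPE-like droplets it stood at 1239 in light damage cluster A and 3608 in cluster B. Il6st, the shared receptor chain gp130, had a log2 ratio of 0.91 (0.58 to 1.25) in RPE-like and 2.06 (1.21 to 3.05) in Müller-like droplets. It was also higher in rods (log2 2.11, 1.94 to 2.29) and cones (1.98, 1.37 to 2.65), where members were few. Osmr went from 0 to 106 UMIs in rods, or 6.10 CPM (at least 20.0-fold higher), and did not differ beyond its interval in cones (log2 -0.87, -2.98 to 1.25). Free RNA was not estimated for Osmr, so its part in the rod UMIs was not tested. Cntfr, the receptor of ciliary neurotrophic factor, was higher in RPE-like (log2 4.64, 2.13 to 9.96) and lower in Müller-like droplets (log2 -1.52, -2.38 to -0.68), and Cntf itself changed in RPE-like droplets by a log2 ratio of -0.43 with an interval from -0.85 to 0.01.

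Among the factors, Cebpd went from 21.6 to 556 CPM in RPE-like droplets (log2 4.69, 3.96 to 5.53) and from 177 to 2838 in Müller-like droplets (log2 4.01, 3.399 to 4.69). Cebpb had log2 ratios of 2.74 (2.19 to 3.34) and 3.80 (2.66 to 5.26), and Stat3 of 2.53 (1.95 to 3.17) and 2.30 (1.37 to 3.39). Socs3, the inhibitor that STAT3 induces, had log2 ratios of 6.18 (3.68 to 11.49) and 4.29 (1.74 to 9.62). Nfkbia, the NF-kB inhibitor that NF-kB itself induces, had 4.06 (3.00 to 5.38) and 4.70 (2.82 to 7.76). In RPE cluster A after light damage Cebpd stood at 335, Stat3 at 99.7 and Socs3 at 79.8 CPM, and in cluster B at 821, 338 and 133. Cebpd was also higher in rods, from 29 to 1973 UMIs (log2 5.26, 4.74 to 5.85), and so was Stat3 (log2 3.88, 3.67 to 4.10), where Serpina3n and Ptx3 stood at 1.84 and 0.58 CPM. In microglia-like droplets Stat3 (log2 0.62, -0.80 to 2.54) and Cebpd (0.14, -1.87 to 3.265) did not differ beyond their intervals. Cebpb (log2 1.17, 0.265 to 2.25) and Nfkbia (2.41, 0.53 to 5.47) were higher there, and Socs3 went from 0 to 93 UMIs (at least 2.84-fold higher). Nr3c1, the glucocorticoid receptor, had intervals that held 0 in RPE-like (-0.82 to 0.65), Müller-like (-0.68 to 1.09) and rod-like droplets (-0.03 to 0.19), and was lower in cone-like droplets (log2 -0.40, -0.78 to -0.01).

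**Figure D5:**
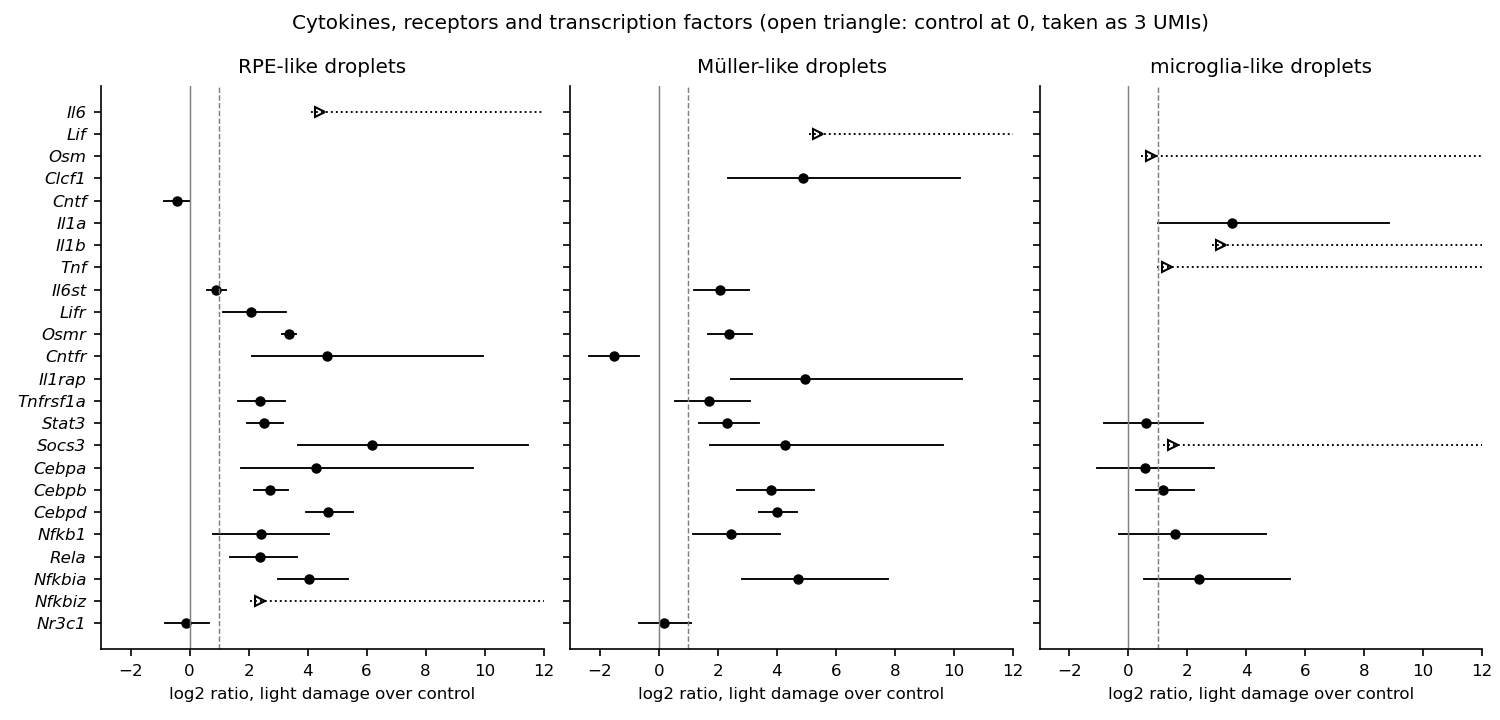
Log2 ratio of light damage over control (horizontal axis) of the listed cytokines, receptors and factors with at least 50 UMIs in RPE-like, Müller-like and microglia-like droplets, with 95% intervals drawn up to 12. Open triangles are bounds against 3 UMIs where the control had none, the grey line is at 0 and the dashed line at 2-fold. Il6 appears in RPE-like, Lif and Clcf1 in Müller-like and Osm, Il1a, Il1b and Tnf in microglia-like droplets.

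Other acute-phase genes followed the members only in part. Of the 47 genes of that list that were found and are not members, 8 had at least 10 UMIs in RPE-like droplets, and 3 of these were at least 2-fold higher and none lower (median log2 0.89), beside 14.1% of all genes higher (median 0.05). In Müller-like droplets 4 of 7 were higher and 1 lower (median 1.92), beside 22.3% (-0.03). In microglia-like droplets 1 of 3 was higher (median 0.95), beside 15% (-0.33), in cones 5 of 6 (1.25), beside 21.6% (0.32), and in rods 6 of 7 (2.77), beside 31% (0.61). Free RNA was not estimated for these genes. The higher genes in rods include Ttr (254 and 1189 UMIs), itself one of the RPE genes that estimate free RNA there. Of the higher genes in cones, Hp had 32 UMIs in 3 droplets and C3 12 UMIs in 2 droplets. Cp, the ferroxidase ceruloplasmin, went from 1092 to 12521 CPM in Müller-like droplets (log2 3.52, 3.27 to 3.78) and was counted in 26 of 27 droplets. F3, tissue factor, went up in RPE-like droplets from 216 to 884 (log2 2.03, 1.79 to 2.28) and in Müller-like droplets from 137 to 1086 (log2 2.99, 2.29 to 3.79), and in light damage RPE clusters A and B it stood at 260 and 1632. A2m, a broad protease inhibitor, had a log2 ratio of 0.83 (0.71 to 0.95) in RPE-like droplets. Ttr, transthyretin, which falls in the acute phase of the liver and is abundant in the RPE, had a log2 ratio of -0.26 (-0.28 to -0.25) there, and stood at 65757 in light damage cluster A and 42115 in cluster B. Il1rn, the antagonist of the interleukin-1 receptor, had 371 UMIs in microglia-like droplets after light damage and 0 before, at least 11.3-fold higher.

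Partners of the members were taken from a list of 31 genes. In RPE-like droplets 4 of 14 with at least 10 UMIs were at least 2-fold higher and none lower (median log2 0.63), beside 14.1% of all genes higher (median 0.05). In Müller-like droplets 4 of 11 were higher and none lower (0.21), beside 22.3% (-0.03), and in microglia-like 2 of 4 and none (0.79), beside 15% (-0.33). In cones 5 of 11 were higher and 1 lower (0.72), beside 21.6% (0.32), and in rods 8 of 14 and 1 (1.22), beside 31% (0.61). Of the Lcn2 receptors, Lrp2 had a log2 ratio of 0.65 (0.44 to 0.86) in RPE-like droplets and Slc22a17 of -0.24 (-0.46 to -0.02), and Slc22a17 was lower in rods (-1.21, -1.43 to -0.99). Mmp3, a metalloprotease that Timp1 inhibits, had 309 UMIs in light damage RPE-like droplets and none in the control (at least 29.9-fold higher), and 293 of them were in cluster B. Timp2 and Timp3, the relatives of Timp1, were lower in RPE-like droplets (log2 -0.66, -0.85 to -0.47, and -0.42, -0.49 to -0.36) and did not differ beyond their intervals in Müller-like droplets (0.11, -0.48 to 0.73, and 0.21, -0.20 to 0.63). Tnfaip6, a hyaluronan-matrix protein that binds Ptx3, went from 1 to 578 UMIs in Müller-like droplets (log2 7.82, 5.34 to 13.13), of which 400 were in 1 droplet. Cd63, a receptor of Timp1, had a log2 ratio of 1.90 (1.44 to 2.40) in Müller-like and 0.41 (0.31 to 0.52) in RPE-like droplets.

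Of 17 genes used as marks of reactive glia, 12 of 13 with at least 10 UMIs were at least 2-fold higher in Müller-like droplets and none lower, with a median log2 ratio of 2.41, beside 22.3% of all genes higher (median -0.03). In RPE-like droplets 3 of 6 were higher and 1 lower (median 0.74), beside 14.1% (0.05), and in microglia-like 2 of 4 and 2 (-0.04), beside 15% (-0.33). In cones 3 of 6 were higher and 2 lower (0.60), beside 21.6% (0.32), and in rods 9 of 9 and none (2.76), beside 31% (0.61). Gfap had 117 UMIs in 13 of 27 light damage Müller-like droplets and none in the control (at least 15.2-fold higher). Vim, another intermediate filament, had a log2 ratio of 2.11 (1.70 to 2.55) in Müller-like and -0.41 (-0.74 to -0.07) in RPE-like droplets. Cd44, the hyaluronan receptor, had 2.41 (1.92 to 2.94) in Müller-like droplets.

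Over 5 classes and 2 libraries the profiles of Serpina3n and Ptx3 were most like each other, while that of Lcn2 was most like Crispld2. Over these 10 points and among 9875 genes with at least 200 UMIs, Pearson's r of log2(CPM + 1) with Serpina3n was 0.98 for Ptx3, 0.92 for Lcn2, 0.92 for Pvr, 0.90 for Gbp5 and 0.88 for Il6. The genes most like Lcn2 were Crispld2 (0.95), Ptx3 (0.92), Serpina3n (0.92), Pvr (0.91) and Gbp2 (0.85), and those most like Ptx3 were Serpina3n (0.98), Lcn2 (0.92), Pvr (0.88), Gbp3 (0.87) and Gbp5 (0.87). Gbp3, a guanylate-binding protein, stood at 332 CPM in light damage RPE-like and 31.4 in Müller-like droplets, and Gbp2, of the same family, at 5.85 and 392. The points share 2 libraries and their depth, so these values only rank genes.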

How the data were processed

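Reads were mapped and counted by the authors, whose notes name Cell Ranger 7.0.1, Salmon 1.10.1, alevin 0.8.1 and mm10. The deposited values are whole-number UMI counts per barcode and gene, split into spliced, unspliced and ambiguous, without normalization or removal of empty droplets or free RNA. A count of a gene is spliced plus ambiguous UMIs here, and levels are CPM of the class sum. The members and gene lists were chosen with earlier results of these data known.

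Droplets had at least 1464 (control) or 1614 (light damage) UMIs, the inflection points of the barcode ranks, and under 10% mitochondrial UMIs. The automatic doublet threshold called 1 and 0 droplets, so the 114 and 276 droplets of highest doublet score were left out. Both libraries were clustered together (2000 variable genes without the members, 50 components, 15 neighbours, Leiden resolution 1, seed 0; scanpy 1.11.5). A cluster took the name of the marker list with the highest mean log2 fold, of at least 1, with 3 markers in 10% of droplets; it stayed unnamed where another list led its top 10 genes. As first written the rule also asked for 1 marker among the top 10 genes, which was dropped after the clusters had been seen. Clusters of high rod marker level were called rods. Serpina3h and Tf were not matched.

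Intervals are exact Poisson (levels), exact binomial (shares) and exact conditional binomial (ratios) at 95%, with 0 taken as 3 UMIs for bounds. Free RNA came from barcodes under 50 UMIs, and its share in a class from rod genes, or from RPE genes in rods and cones. The 7 members are named in every class, listed genes where they had at least 50 UMIs in a class and were at least 2-fold higher or lower, and for Serpina3n, Lcn2 and Ptx3 the 5 genes of highest Pearson correlation. Which listed genes to describe, including those under these limits, was chosen after their values were seen. Steps were tested on simulated counts. Alternatives are given in the closing section. Other software was leidenalg 0.10.2, scipy 1.17.1, matplotlib 3.10.9 and pandas 2.3.3 under Python 3.11.15.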

Additional observations from a re-analysis of the deposited data

Results flagged for a closer look

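The log2 ratio of Lcn2 differed in sign between 2 classes, at least 6.20 in RPE-like droplets and -0.51 in rods, and the difference was not tested. The interval in rods held 0, and in rods under 25% unspliced Lcn2 stood at 6.81 and 6.79 CPM, so that no fall is shown by these counts. Free RNA, expected to give 0.95 UMIs of Lcn2 in control rods and 11.3 after light damage, was not taken off. A fall without free RNA was not tested. Steap4 had a log2 ratio of at least 2.52 in Müller-like and -5.29 in cone-like droplets, and this difference was not tested either. The value in cones comes from a single control droplet with 86 UMIs and no cone marker UMI, and both libraries were at 0 in cone-like droplets that carried their own cone markers.

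Members also had UMIs in light damage barcodes between 500 UMIs and the minimum of the kept droplets, above the level of the control barcodes of that size. Serpina3n stood at 25.5 CPM there, Ptx3 at 14.4, Lcn2 at 11.4 and Timp1 at 4.51. The control barcodes held 0.44, 0.44, 4.41 and 0. Barcodes of this range were used in no main value, and those with at least 1000 UMIs were open to the alternative with a lower minimum.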

How the results depend on the processing

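No paired analysis was possible because each condition has 1 library. The log2 bounds of Serpina3n, Lcn2 and Ptx3 in RPE-like and Müller-like droplets were set against the 95% interval of the main value. They were labelled the same in 69 comparisons and moved in 6, all in RPE-like droplets and under 2 alternatives added after seeing the data. With 0 control UMIs the interval of each ratio has no upper end, so it does not limit higher values. The labels do not show stable Müller bounds. At a Leiden resolution of 2 the Müller levels, and the bounds of Serpina3n and Ptx3, were lower, as given below. Where clusters with none of their own markers among their top 10 genes stayed unnamed, the naming rule as first written, the bounds were 5.14, 2.31 and 1.59, Timp1 reversed to -0.91, and no Müller value was left, since its 1 light damage droplet had no UMI of these genes. Where all markers of other classes were used to leave out mixed droplets, 247 of 300 light damage RPE-like droplets were left out, since Glul, Car14, Rlbp1 and Apoe are counted in RPE-like droplets too, and the bounds were 3.73, 2.06 and 2.69, with Timp1 reversed to -2.07. Where these shared markers were not counted, 0 of the 300 were left out.

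Müller levels moved with the class. Its 27 light damage droplets became 104 at a mitochondrial limit of 5%, with a cluster whose rod markers stood at 31959 CPM. The class held 87 at a minimum of 1000 UMIs and 47 where each droplet was named by its own marker UMIs. At a Leiden resolution of 2 it held 108 light damage droplets, with a cluster whose leading genes include Rgs5 and Ly6c1 and whose rod markers stood at 44430 CPM, and Lcn2 stood at 435, Timp1 at 166, Serpina3n at 108 and Ptx3 at 63.5 CPM. With unspliced UMIs included, Müller Lcn2 stood at 509 and Serpina3n at 120 CPM. The first and second class of Serpina3n, Lcn2 and Ptx3 were the same in every alternative of class definition except the naming rule as first written. The share of genes at least 2-fold higher in microglia was 36.4% with at least 50 UMIs and 7.45% without a minimum. The few control Müller-like and microglia-like UMIs limit every bound, and the spread between mice is unmeasured.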
